A study of Homo sapiens with 48 samples.

Results

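The samples described here are 12 poly(A) RNA-seq libraries, of 48 in the series, chosen by their labels as the Kelly libraries of the 3-day treatment at each time of actinomycin D. Kelly is a human neuroblastoma cell line with amplified MYCN, labelled as wild type, and all 6 groups come from this 1 line. Cells received STM2457 at 8 µM, a compound that inhibits the RNA methyltransferase METTL3, or its solvent DMSO, for 3 days. Both arms then received 10 µg/ml actinomycin D, which blocks transcription, for 0, 3 or 6 h, so that the fall of a transcript after its addition follows its loss. This gave 6 groups of 2 libraries. The labels do not say that the 2 libraries of a group are separate cultures, so the p-values below measure the spread between these libraries, which may be technical. The Kelly libraries of 6 days, and those of NGP, another MYCN-amplified neuroblastoma line, treated for 3 days, 12 each, are set beside them, and those of Kelly also share in the estimate of the spread.

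N6-methyladenosine (m6A) is a methyl mark that METTL3, in a complex with METTL14 and WTAP, places on adenosines of newly made mRNA, most often in a GGAC sequence context. The mark is known to lie mainly in long internal exons and around stop codons and to be sparse close to exon-exon junctions. Reader proteins of the YTHDF family bind it and recruit the CCR4-NOT deadenylase, which shortens the poly(A) tail and starts decay. Transcripts differ widely in lifetime: those of immediate early genes, many transcription factors and replication-dependent histones are short-lived, and those of ribosomal proteins and metabolic enzymes are long-lived.

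The 12 libraries held 13894675 to 18933387 fragments in genes. Levels are given as CPM, a gene's fragments scaled to the TMM-adjusted library total, and changes as log2 ± SE. Because TMM takes most genes as unchanged, a positive change under actinomycin D means only that a transcript fell less than most or rose. The decay difference of a gene is its change from 0 to 6 h under STM2457 minus that under DMSO. A positive value is called slower loss, a negative one faster loss. These names are also used for genes whose relative level rose, such as FAM49A, where they do not describe a loss. ERCC spike-ins, synthetic RNAs that took 0.290 to 0.528% of the library totals, give another scale, on which the median decay difference of all genes moved from 0.021 to -0.37. Every value below is therefore relative to the rest of its libraries. All 12 markers of adrenergic neuroblastoma cells were at 1 CPM or more on average, summing to 9264 to 12266 CPM. The 12 mesenchymal or fibroblast markers summed to 204 to 289 CPM, with 8 at 1 CPM or more. The Schwann cell list had 2 of 7 and the blood and endothelium list 2 of 10 at that level, and 1 of the latter was at 0.

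The libraries differed in how much they held of olfactory receptor genes, which these cells are not known to use. Fragments in 383 such genes summed to 4.76 and 11.0 CPM in the DMSO libraries at 0 h, 6.32 and 9.96 at 3 h and 26.2 and 40.9 at 6 h. Under STM2457 they summed to 11.5 and 3.07 at 0 h, 96.8 and 64.8 at 3 h and 71.6 and 69.1 at 6 h. The STM2457 libraries lay above those of DMSO at 3 and 6 h, and per kb of exon the sum was at most 0.107 CPM. The number of genes with a fragment was 15725 and 15766 under STM2457 at 6 h and 14087 and 14766 under DMSO. When tested genes were put in 5 classes by mean level, the median decay difference was 1.18 in the lowest class and -0.061 in the highest. The part of this signal in the results for rarely counted genes was not tested, and transcript classes are given below for genes whose mean is 10 CPM or higher.

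In the DMSO cells, actinomycin D changed the relative level of 5038 of 16759 genes tested between 0 and 6 h (30.1%), 2420 upward (14.4%) and 2618 downward (15.6%), by edgeR's quasi-likelihood test after Benjamini-Hochberg adjustment. In the STM2457 cells 4501 changed (26.9%), 2151 upward (12.8%) and 2350 downward (14%). The split depends on the scale: with library size alone it was 1413 up and 3380 down in DMSO and 1476 and 2842 under STM2457, and with the spike-ins 521 and 4744, and 75 and 8312. MYCN (chromosome 2, positions 15940550 to 15947007), the transcription factor amplified in these cells, was at 5533 and 6035 CPM at 0 h in DMSO, at 704 and 741 at 3 h and at 467 and 445 at 6 h. Under STM2457 it was at 5541 and 5271, 541 and 572, and 431 and 410.1. The arms overlapped at 0 h, and the STM2457 libraries lay lower at 3 and at 6 h. Its decay difference over 6 h was -0.019 ± 0.067 (adjusted p = 1.00 by edgeR), with the sign changing between refits. METTL3 mRNA (chromosome 14, positions 21498133 to 21511342), whose protein the compound inhibits, was at 46.5 to 57.9 CPM in the 6 DMSO libraries and at 48.4 to 71.8 in the 6 of STM2457, which overlap, with a decay difference of -0.067 ± 0.25.

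The loss of 37 of 16759 transcripts over 6 h (0.221%) differed between STM2457 and DMSO by edgeR's quasi-likelihood test after Benjamini-Hochberg adjustment: 33 were lost slower under STM2457 (0.197%) and 4 faster (0.0239%). At an unadjusted p under 0.05 the counts were 751 slower (4.48%) and 624 faster (3.72%). The median size of the called differences was 1.13 on the log2 scale. The count and its split moved with the method: 60 slower and 36 faster with DESeq2, 28 and 45 after removal of a trend on exon length from each library, 28 and 47 after removal of a trend on GC content (tried after the data were seen), 43 and 2375 with spike-in scaling, and 4 and 1 with limma-voom. Leaving out 1 of the 8 libraries at 0 and 6 h gave 22 calls (without STM2457 at 0 h, replicate 1) to 123 (without DMSO at 6 h, replicate 2). Under the alternatives that kept every library of 3 days, all 33 slower genes stayed above 0 except HAND2 with spike-in scaling, and all 4 faster genes stayed below 0.

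**Figure D1:**
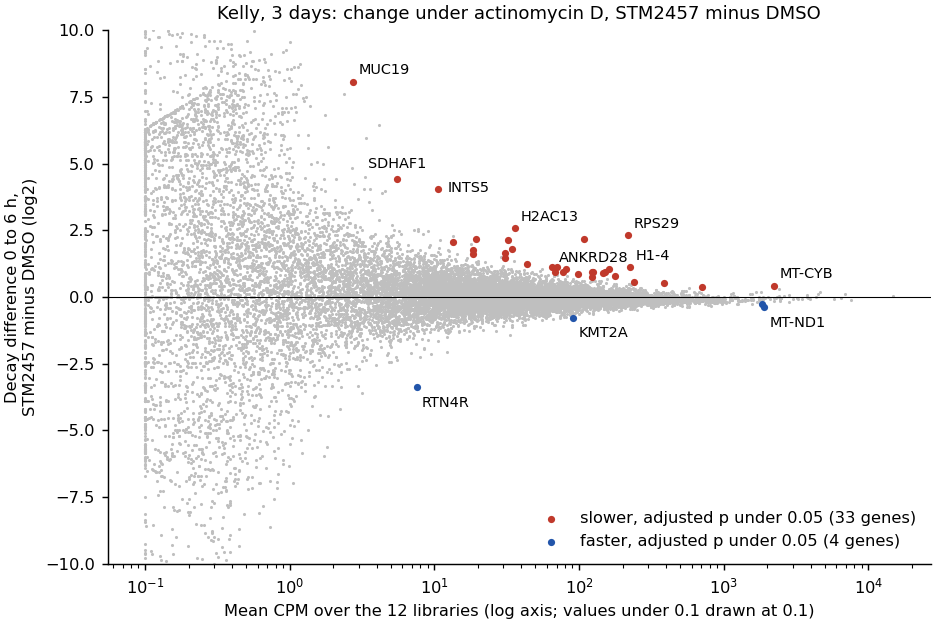
Decay difference over 0 to 6 h (log2, STM2457 minus DMSO) against the mean CPM over the 12 libraries (log axis, values under 0.1 drawn at 0.1), 1 point per tested gene, with the 33 slower and 4 faster genes coloured; 145 genes beyond 10 in either direction lie outside the axis. The scatter widens towards low levels, and the called genes lie mostly above 0.

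Of the slower genes 4 kept their call when any 1 of the 8 libraries was left out: SOX12, PRCC, MAGEF1 and the mitochondrial MT-CYB. PRCC and MAGEF1 were named after their values were seen. SOX12 (chromosome 20, positions 325595 to 330224), a SoxC transcription factor encoded by 1 exon, was at 178 and 197 CPM at 0 h in DMSO, 105 and 125 at 3 h and 44.05 and 76.2 at 6 h. Under STM2457 it was at 235 and 238, 220.3 and 209.9, and 161 and 152. The arms did not overlap at any time, and the gap between them was widest in ratio at 6 h. The decay difference of SOX12 was 1.05 ± 0.16 (adjusted p = 6.11e-06 by edgeR). PRCC (chromosome 1, positions 156750610 to 156800815), a nuclear protein known from a gene fusion in renal carcinoma, went from 159.5 and 168 CPM through 132 and 118 to 63.2 and 62.98 in DMSO. Under STM2457 it went from 209 and 202 through 200.3 and 190.3 to 155 and 151, above DMSO at each time, and the decay difference was 0.95 ± 0.16. MAGEF1 (chromosome 3, positions 184710364 to 184712064), a MAGE family gene with 1 exon, fell from 156 and 166 CPM to 56.2 and 45.8 in DMSO and from 173 and 179.99 to 100.4 and 115 under STM2457. MAGEF1 differed by 0.94 ± 0.17 over 6 h and 0.73 ± 0.17 over the first 3 h, and both passed.

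FEN1 (chromosome 11, positions 61792911 to 61797238), the flap endonuclease of DNA replication, fell from 125 and 125 to 58.3 and 76.5 CPM in DMSO, and was at 183 and 201 at 0 h and 179 and 206 at 6 h under STM2457. Its change was -0.89 in DMSO and 0.0052 under STM2457, a decay difference of 0.89 ± 0.17, and the call was lost without DMSO at 6 h, replicate 1 (0.71). CBX2 (chromosome 17, positions 79778148 to 79787983), a chromobox subunit of Polycomb repressive complex 1, fell from 180.4 and 182 to 41.5 and 49.1 CPM in DMSO and from 150.3 and 151 to 68.5 and 69.7 under STM2457, a decay difference of 0.87 ± 0.18 (0.76 and not called without DMSO at 6 h, replicate 1). The arms thus crossed: CBX2 was lower under STM2457 at 0 h and higher at 6 h. MAP1S (chromosome 19, positions 17719242 to 17734513), a microtubule-associated protein, fell from 50.9 and 53.2 to 3.09 and 5.62 CPM in DMSO and from 60.6 and 57.8 to 17.5 and 17.1 under STM2457, a decay difference of 1.80 ± 0.35 (1.43 and not called without DMSO at 6 h, replicate 1). SURF6 (chromosome 9, positions 133328776 to 133336188), a nucleolar protein of ribosome assembly, fell from 111 and 118 to 17.1 and 20.6 CPM in DMSO and from 128 and 102 to 35.2 and 47.6 under STM2457. SURF6 differed by 1.13 ± 0.23, with no call at 0.98 without STM2457 at 0 h, replicate 2 and 0.89 without STM2457 at 6 h, replicate 2. CBX2 and SURF6 were named after their values were seen.

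BYSL (chromosome 6, positions 41921499 to 41933046), which is needed to assemble the small ribosomal subunit, fell from 39.8 and 41.4 to 3.45 and 6.96 CPM in DMSO and from 56.2 and 55.1 to 20.8 and 24.5 under STM2457. The arms did not overlap at 0 or 6 h, and the decay difference of 1.67 ± 0.38 lost its call in 5 of the 8 refits, at 1.25 to 1.68. BTG2 (chromosome 1, positions 203305491 to 203309602), an antiproliferative gene whose protein recruits CCR4-NOT, fell from 47.3 and 40.7 to 4.102 and 1.76 CPM in DMSO and from 40.4 and 44.3 to 10.3 and 8.79 under STM2457. At 3 h the arms of BTG2 overlapped, at 5.08 and 5.37 CPM in DMSO and 7.97 and 4.78 under STM2457. Its level under STM2457 was thus higher at 6 h than at 3 h. BTG2 differed by 1.76 ± 0.44 (adjusted p = 0.0469 by edgeR) and was not called in 6 of the refits, at 1.27 to 1.87. HAND2 (chromosome 4, positions 173524969 to 173530229), a transcription factor of the adrenergic state, fell from 936 and 933 to 563 and 566 CPM in DMSO and from 801 and 815 to 629 and 627 under STM2457. HAND2 differed by 0.36 ± 0.085 over 6 h and 0.37 ± 0.085 over the first 3 h. The 6 h call was lost in 7 refits (0.35 to 0.37), and with spike-in scaling the value was -0.044.

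**Figure D2:**
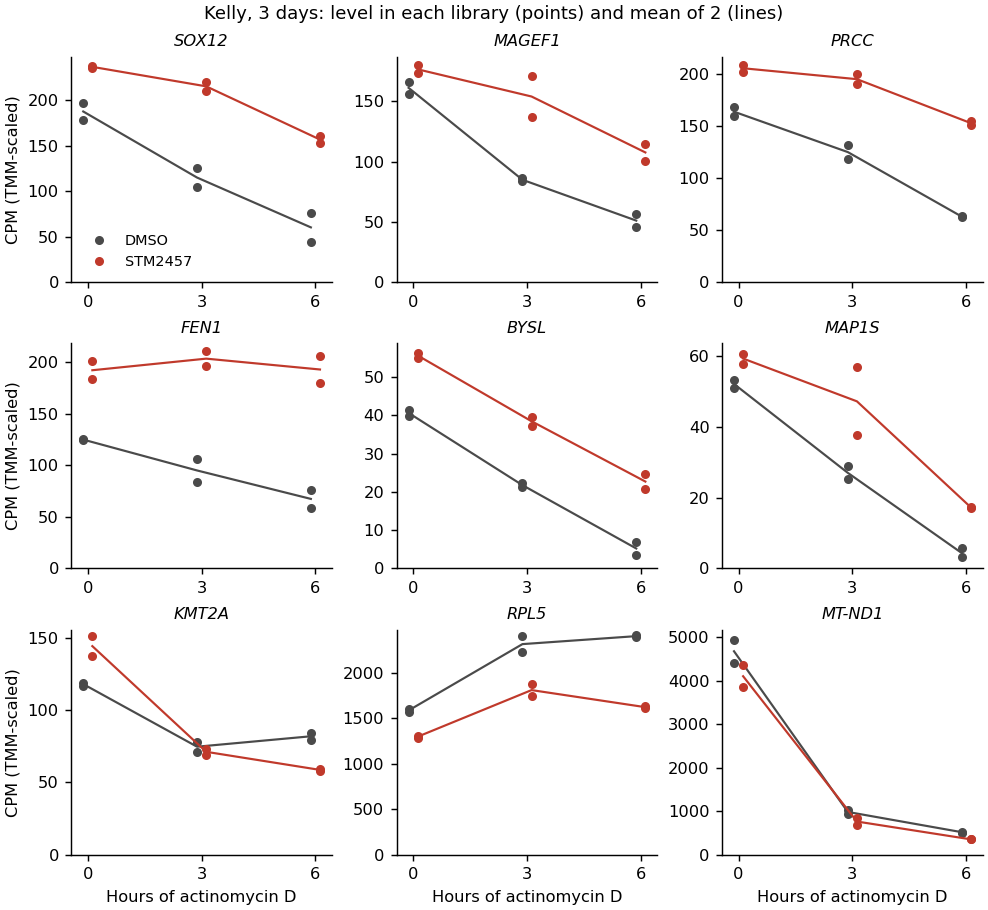
CPM (TMM-scaled, axes from 0) of 9 called genes against hours of actinomycin D, with 1 point per library for DMSO and STM2457 and lines through the means of 2 libraries. In the 6 slower genes (SOX12, MAGEF1, PRCC, FEN1, BYSL and MAP1S) the STM2457 points lie above those of DMSO at 6 h, and in the 3 faster genes (KMT2A, RPL5 and MT-ND1) below them.

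Several further slower genes were at low levels. SDHAF1 (chromosome 19, positions 35995199 to 35996315) is an assembly factor of succinate dehydrogenase with 1 exon. It fell from 14.3 and 13.4 to 0.288 and 0.351 CPM in DMSO. Under STM2457 it was at 7.96 and 11.2 at 0 h and 6.13 and 3.58 at 6 h. At 3 h the arms overlapped, at 4.81 and 1.39 in DMSO and 1.21 and 1.92 under STM2457. The level under STM2457 was thus higher at 6 h than at 3 h. The decay difference of SDHAF1 was 4.43 ± 0.96 over 6 h and -0.44 over 3 h. Without STM2457 at 0 h, replicate 1, the 6 h value was 4.21 and not called. INTS5 (chromosome 11, positions 62646848 to 62653302), a subunit of the Integrator complex, was at 13.5 and 25.4 CPM at 0 h in DMSO and at 0 and 0.492 at 6 h, and went from 25.9 and 18.97 to 4.52 and 5.34 under STM2457. Its fitted decay difference was 4.06 ± 0.79, and 3.10 and not called without DMSO at 6 h, replicate 1. AP001458.2, on the same strand, overlaps 9.32% of its exon bases. SCAND1 (chromosome 20, positions 35953617 to 35959472), a SCAN domain protein, fell from 18.3 and 25.2 to 3.24 and 4.29 CPM in DMSO and was at 27.3 and 27.9 and then 24.7 and 18.9 under STM2457. SCAND1 differed by 2.19 ± 0.47 (1.95 to 2.20 in the 5 refits that ended the call), but 39.9% of its exon bases overlap CNBD2 on the other strand, which the counting did not separate. BICRAL, a subunit of a BAF chromatin remodelling complex, fell from 23.2 and 20.9 to 2.16 and 2.32 CPM in DMSO and from 27.02 and 21.8 to 9.51 and 11.4 under STM2457 (2.07 ± 0.50, with the call lost in 6 refits at 1.92 to 2.24). CDK18, a cyclin-dependent kinase, was at 21.2 and 28.4 CPM at 0 h and 15.3 and 16.9 at 6 h in DMSO and at 10.96 and 10.95 and then 27.6 and 15.7 under STM2457 (1.61 ± 0.37, with the call lost in 4 refits at 1.14 to 1.61). The STM2457 libraries of CDK18 were below those of DMSO at 0 h and overlapped them at 6 h.

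For 2 called genes 1 library made the difference. RPS29, a protein of the small ribosomal subunit, was at 1130.0 CPM in DMSO at 0 h, replicate 1, and between 81.3 and 320.5 in the other 11 libraries. Its decay difference was 2.32 with that library and -0.58 without it. ANKRD28, a regulatory subunit of protein phosphatase 6, was at 562 CPM under STM2457 at 6 h, replicate 2, and between 54.98 and 80.6 elsewhere. Its decay difference was 2.19 with that library and -0.29 without it. ANKRD28 shares 6.48% of its exon bases with BTD on the other strand, which the counting did not separate. Neither RPS29 nor ANKRD28 is read here as slower, though both stay in the counts of slower genes.

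In all, 14 slower genes lie outside the rule for named genes and were named after their values were seen. Beside PRCC, MAGEF1, CBX2, SURF6 and the histones H1-2 and H2BC14, they are MUC19 and CCDC85B (1.47), ZDHHC7 (1.25), FAM222A (0.94), MPST (0.92), TMEM132A (0.74), MAP1A (0.56) and TUBB4B (0.52). MUC19, a mucin, was called at 8.07 with 0 CPM in both STM2457 libraries at 0 h and at most 7.27 CPM in any library, so this fitted value is not a measured fold. Refits without 1 library ended the call of MUC19 in 5 cases of 8 (6.83 to 8.08), of CCDC85B in 4 (lowest value 1.24), of ZDHHC7 in 4 (0.97 to 1.16), of FAM222A in 2 (0.71 to 0.74) and of MPST in 3 (0.66 to 0.84). They ended that of TMEM132A in 3 (0.59 to 0.70), of MAP1A in 6 (0.49 to 0.64) and of TUBB4B in 4 (0.43 to 0.50). TUBB4B, a beta tubulin, fell from 410.3 and 439 to 296 and 261 CPM in DMSO and was at 408 and 397 and then 391 and 365 under STM2457. TMEM132A did not fall relative to the typical gene in either arm, changing by 0.53 in DMSO and 1.28 under STM2457. ALDH1B1 (chromosome 9, positions 38392702 to 38398661), a mitochondrial aldehyde dehydrogenase, was at 45.1 and 63.3 CPM at 0 h and 36.1 and 26.8 at 6 h in DMSO, and at 94.3 and 81.01 and then 95.9 and 101 under STM2457. Its decay difference was 0.95 ± 0.23, and the call was lost in 4 refits at 0.69 to 0.91. Across the 33 slower genes the median change in DMSO was -1.73, and 30 of them were below 0 there. Of the 33, 4 kept their call in all 8 refits, 10 lost it in 1, 12 in 2 to 4 and 7 in 5 or more. The 10 include RPS29 and ANKRD28, whose values fell below 0 in that refit.

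The 4 faster genes were RTN4R, KMT2A, MT-ND1 and RPL5. KMT2A (chromosome 11, positions 118436490 to 118526832), a histone H3 lysine 4 methyltransferase, was at 119 and 117 CPM at 0 h, 78.0 and 71.2 at 3 h and 79.4 and 84.2 at 6 h in DMSO, and at 137 and 151, 72.99 and 69.2, and 57.7 and 59.5 under STM2457. The STM2457 libraries lay above DMSO at 0 h, overlapped them at 3 h and lay below at 6 h, a decay difference of -0.77 ± 0.19 (adjusted p = 0.0394 by edgeR). It shares 17.9% of its exon bases with AP001267.5 on the same strand, and its call was lost in 7 refits (-0.83 to -0.70). RPL5 (chromosome 1, positions 92832013 to 92841924), of the large ribosomal subunit, rose in relative level from 1573 and 1600.2 to 2389.8 and 2418 CPM in DMSO and from 1285 and 1311 to 1630.1 and 1615 under STM2457. The arms did not overlap at 0 or 6 h, and the decay difference of -0.28 ± 0.065 lost its call in 7 refits (-0.29 to -0.26). RTN4R (chromosome 22, positions 20241415 to 20283246), the Nogo receptor of axons, fell from 10.4 and 17.2 to 1.15 and 2.601 CPM in DMSO and from 15.5 and 18.2 to 0 and 0.456 under STM2457. Its fitted decay difference was -3.36 ± 0.83 and rests on few fragments: the call was lost in 5 refits, at -3.47 to -2.32. VCL, which encodes vinculin (-0.63 ± 0.16), and MTF2, a Polycomb-like protein (-0.75 ± 0.20), came next by unadjusted p among the negative values and did not pass (adjusted p = 0.0714 and 0.0765 by edgeR).

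The motif GGACT, a well-known methylation context, was looked up in the 150 last coding bases of each gene's canonical transcript on the coding strand only. These windows are shown for the called genes that hold it within 1 exon, since the stop codon region is where the mark is known to be dense. Bases of GRCh38 are given 5′ to 3′ on the gene's strand with GGACT in capitals.
SOX12 (chr20:326723-326872, plus strand): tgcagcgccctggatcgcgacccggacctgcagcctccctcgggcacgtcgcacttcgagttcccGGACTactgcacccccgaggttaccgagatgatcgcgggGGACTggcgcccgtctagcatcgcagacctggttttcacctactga
CBX2 (chr17:79784893-79785042, plus strand): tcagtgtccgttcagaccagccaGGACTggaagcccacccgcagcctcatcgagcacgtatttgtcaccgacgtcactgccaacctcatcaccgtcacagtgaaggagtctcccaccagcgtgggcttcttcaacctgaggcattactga
INTS5 (chr11:62647020-62647169, minus strand): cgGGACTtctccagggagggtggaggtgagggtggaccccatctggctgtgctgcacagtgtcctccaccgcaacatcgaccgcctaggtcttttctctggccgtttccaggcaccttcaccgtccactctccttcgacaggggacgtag
RTN4R (chr22:20241711-20241860, minus strand): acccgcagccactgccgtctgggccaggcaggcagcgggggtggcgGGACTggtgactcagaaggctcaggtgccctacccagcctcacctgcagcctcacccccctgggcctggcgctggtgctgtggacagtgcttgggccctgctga
SOX12 holds the motif 2 times and the others 1 time each. The motif was in the window of 16.6% of 16293 tested genes, in 4 of the 32 slower genes that have such a transcript (12.5%, RPS29 with them) and in 1 of the 4 faster ones. Over all tested genes the median decay difference was 0.017 with no match, 0.040 with 1 and 0.099 with 2 or more (252 genes). These medians include rarely counted genes, and the part of level and GC content in them was not tested. A match is only a match of letters: no methylation was measured in these libraries.

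Transcripts with few exon junctions were, by their median, lost fast in both arms, and their median decay difference lay above that of the other transcripts. This classing was chosen after the data were seen and is described with no test. It takes all exon junctions of the canonical transcript (GENCODE release 44), those in untranslated regions included, per kb of its coding sequence. Tested genes were ranked by this ratio and put in 5 classes of near equal size. Among genes whose mean was 10 CPM or higher, the 1391 genes with the fewest junctions (up to 3.20 per kb) changed by a median of -0.75 over 6 h in DMSO and -0.61 under STM2457. The 2071 genes with the most junctions (8.43 per kb or more) changed by 0.30 and 0.21. The median decay difference was 0.098, 0.030, -0.038, -0.072 and -0.074 from the fewest to the most junctions. The gap between the outer classes was 0.171 over 6 h and 0.125 over the first 3 h.

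**Figure D3:**
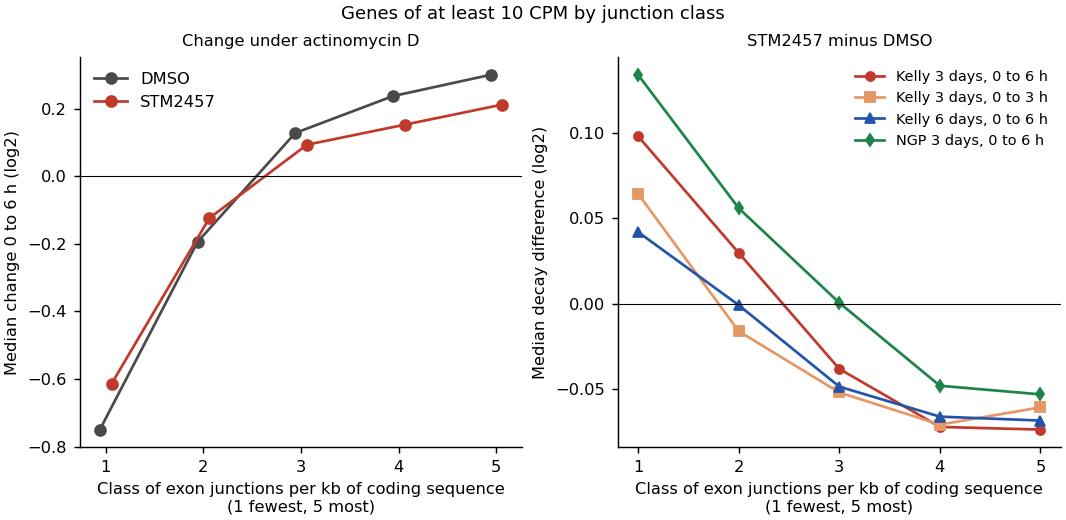
Left: median change from 0 to 6 h of actinomycin D (log2) in DMSO and STM2457 by class of exon junctions per kb of coding sequence, genes whose mean is 10 CPM or higher. Right: median decay difference (log2) by class in the Kelly 3-day libraries over 6 and 3 h, in Kelly at 6 days and in NGP at 3 days; all 4 lines fall from class 1 to class 4, from 0.098 to -0.072 over 6 h in Kelly at 3 days.

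The same gap was read in single libraries as the median log2 CPM of the junction-poor class minus that of the junction-rich class, in which the scaling of a library cancels. In DMSO it was -0.21 and -0.25 at 0 h, -1.10 and -1.14 at 3 h and -1.33 and -1.42 at 6 h. Under STM2457 it was -0.030 and -0.061 at 0 h, -0.80 and -0.83 at 3 h and -0.98 and -0.94 at 6 h. The STM2457 libraries lay above those of DMSO at each time, also before actinomycin D was added, and the pooled SD between libraries of a group was 0.0344. The mean change over 6 h was -1.14 in DMSO and -0.92 under STM2457, and over 3 h -0.89 and -0.77. An exact permutation test of 2 libraries against 2 cannot go below p = 0.333 (two-sided), so none was run.

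**Figure D4:**
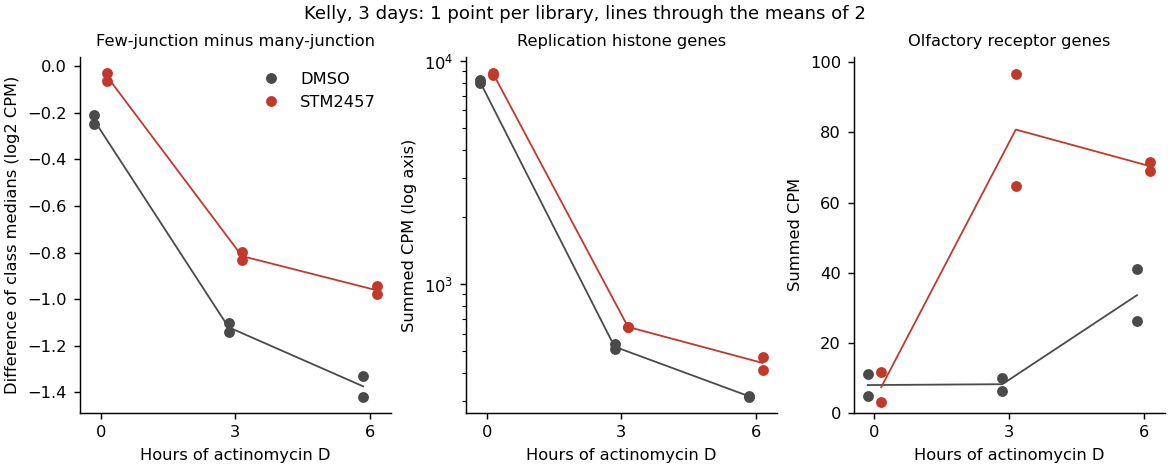
Quantities in each of the 12 libraries against hours of actinomycin D, with lines through the means of 2: the median log2 CPM of junction-poor minus junction-rich genes, the summed CPM of replication histone genes (log axis) and the summed CPM of 383 olfactory receptor genes. In the first panel the STM2457 points lie above the DMSO points at every time, and in the last they do so at 3 and 6 h.

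The junction-poor genes had the highest median of the 5 junction classes within each class of level, GC content, loss and GGACT content. Among the genes of 67.9 CPM or more, medians went from 0.078 in the junction-poor class to -0.099 in the junction-rich one, and among those of 10 to 24.7 CPM from 0.103 to -0.016. In the lowest GC class (up to 41.1%) they went from 0.025 to -0.133, and in the highest (57.8% or more) from 0.271 to 0.031. Genes were also grouped by their loss in the Kelly DMSO libraries of 6 days, which are not part of the contrast. In the class of fastest loss there, the junction-poor genes had a median of 0.193 and the junction-rich ones -0.011. Loss was not equal within that class: the median 3-day change in DMSO was -1.50 in its junction-poor genes and -1.11 in its junction-rich ones. The GC content itself ran with the 6 h difference, from -0.113 in the lowest to 0.087 in the highest class, and the other way with the 3 h difference (-0.016 and -0.057). Exon length (-0.031 in the shortest and -0.044 in the longest class) and 3′ UTR length (-0.024 and -0.050) ran with it little. Genes richest in GGACT over their exons had a median of 0.026 against -0.071 in the poorest, and within the richest the junction classes went from 0.149 to -0.022.

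Genes with few exons made up much of the slower set. Of the 32 slower genes with a canonical transcript, 10 have 1 exon and 6 have 2, together 50%, against 8.33% of all tested genes. In the junction-poor class were 22 of them (68.8%), against 21.2% of tested genes, but also 3 of the 4 faster genes. Without the histones, 17 of 28 slower genes were in that class. The slower genes were also rich in GC, with a median of 55.4% against 48.4% in all tested genes and 45.7% in the 4 faster genes. Of the slower genes, 13 were in the highest of 5 GC classes and 13 in the next. Among genes whose mean was 10 CPM or higher, the 164 with 1 exon had a median decay difference of 0.189 and the 262 with 2 exons 0.195, against -0.032 in the 8639 with 3 or more. Without the histones the median of 1-exon genes was 0.094. At an unadjusted p under 0.05, 40 of the 164 were slower and 4 faster, 40 and 8 of the 262, and 361 and 498 of the 8639 (4.18% and 5.76%). Over all 9179 genes of that level the shares were 4.88% slower and 5.61% faster. In Kelly at 6 days the median of the 1-exon genes was on the other side of 0, at -0.071, and 0.062 without the histones, and that of the 2-exon genes was 0.049. In NGP at 3 days the medians of the 1-exon and 2-exon genes were 0.188 and 0.194.

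Replication-dependent histone genes, whose mRNAs end in a stem-loop instead of a poly(A) tail and are made in S phase, had the lowest median change of all lists in DMSO (-5.06). Their summed level went from 7958 and 8185 CPM at 0 h to 537 and 512 at 3 h and 313 and 315 at 6 h in DMSO, and from 8806 and 8645 to 643 and 643 and then 413 and 473 under STM2457. The STM2457 libraries lay above DMSO at each time, and at 6 h 3.89% of the 0 h level was left in DMSO and 5.08% under STM2457. Of 57 tested, 5 were slower (H1-4, H2AC13, H4C2, H1-2 and H2BC14) and 0 faster, 17 were slower and 2 faster at an unadjusted p under 0.05, and the median was 0.41. The linker histone H1-4 (chromosome 6, positions 26156354 to 26157107) fell from 618 and 659.7 to 4.97 and 4.08 CPM in DMSO and from 684 and 618 to 6.59 and 13.9 under STM2457, a decay difference of 1.13 ± 0.20 that was 0.52 and not called without STM2457 at 6 h, replicate 2. H2AC13 differed by 2.60 ± 0.51 (no call at 1.85 without STM2457 at 6 h, replicate 2) and H4C2 by 2.13 ± 0.42 (no call at 1.29 without DMSO at 6 h, replicate 1). H1-2 differed by 0.79 ± 0.17 (no call at 0.47 without DMSO at 6 h, replicate 1 and 0.62 without STM2457 at 6 h, replicate 2) and H2BC14 by 1.13 ± 0.25 (no call in 4 refits, at 1.05 to 1.17). H2BC13 was at -1.42 ± 0.40 and did not pass (adjusted p = 0.115 by edgeR). Poly(A) selection captures these mRNAs incompletely, and near-identical copies may share reads, so single histone genes are uncertain.

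**Figure D5:**
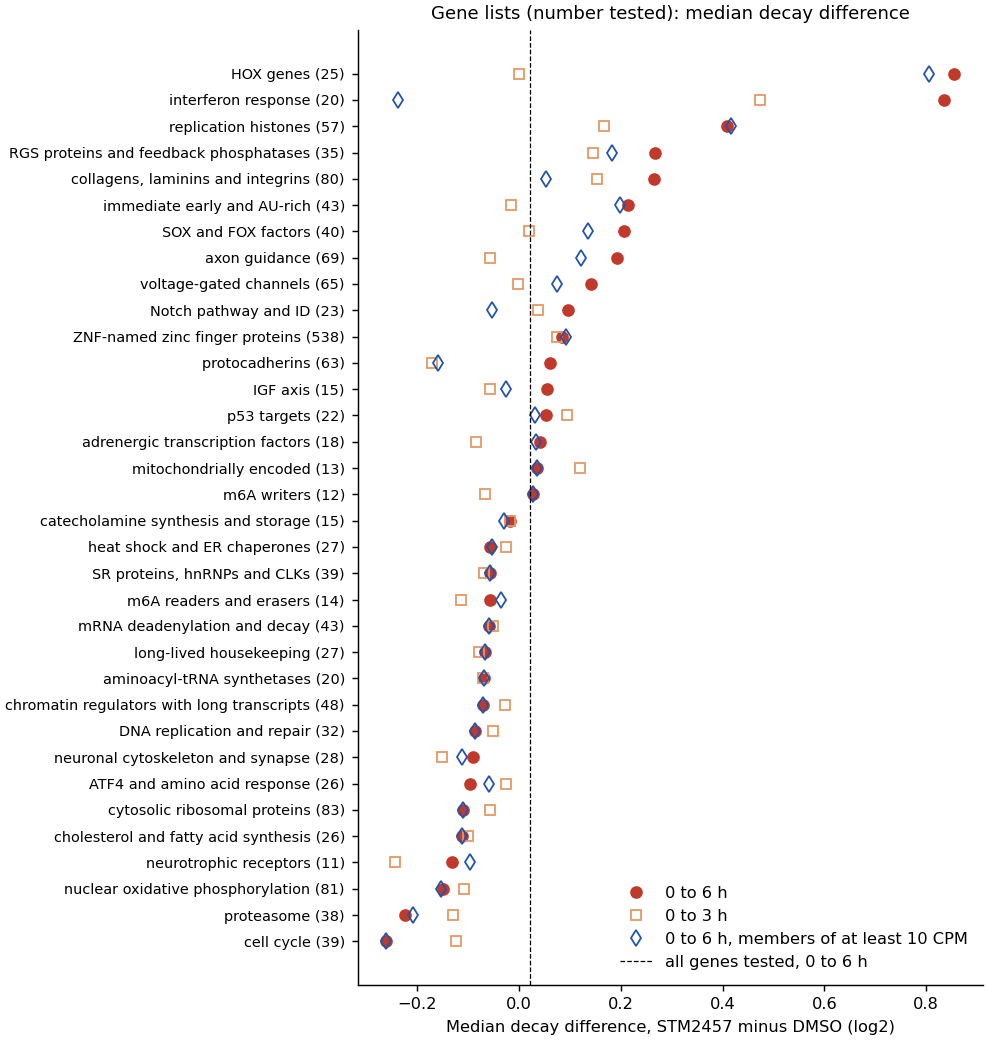
Median decay difference (log2, STM2457 minus DMSO) of 34 gene lists with the number tested, over 6 h (filled circles), over 3 h (open squares) and over 6 h for members whose mean is 10 CPM or higher (open diamonds); the dashed line is the median of all tested genes, 0.021. Histones and immediate early genes lie above it over 6 h with and without the rarely counted members, and cell cycle, proteasome and oxidative phosphorylation genes below it.

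The other lists are described by counts and medians, beside a median of 0.021 and 751 slower and 624 faster of 16759 genes at an unadjusted p under 0.05. Members that did not pass are named after their values were seen. Immediate early and AU-rich genes, which are short-lived, had 43 tested, a median of 0.21, 1 slower (BTG2), and 4 slower and 1 faster at that unadjusted p. JUND, a subunit of AP-1, was at 0.79 ± 0.21 (adjusted p = 0.0975 by edgeR). Over the first 3 h the median of the list was -0.016, and that of its 18 members at 10 CPM or more was -0.23. All tested genes of that level had a median of -0.039 over 3 h. Over 6 h the 18 members had a median of 0.20. Of 538 zinc finger genes, 25 were slower and 14 faster at that unadjusted p, with a median of 0.085, and 0 passed. That slower share is close to the 4.48% of all tested genes. Of 69 axon guidance genes, 7 were slower and 1 faster at that unadjusted p, and 0 passed. Their median was 0.19, and 0.12 over the 34 at 10 CPM or more, but -0.057 over the first 3 h. HOX genes had a median of 0.86 over 25 and 0.81 over the 7 at 10 CPM or more, and 0 passed. The interferon list had 0.84 over 20 genes but -0.24 over the 3 at 10 CPM or more. Adrenergic transcription factors, 16 of 18 of which fell in DMSO, had a median of 0.042, with HAND2 called.

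The medians of several lists of long-lived transcripts and of cell cycle genes were below that of all tested genes. Abundant genes as a whole were below it too: those of 67.9 CPM or more had a median of -0.061, with 9.41% faster and 4.51% slower at an unadjusted p under 0.05, and the part of level in the list values was not tested. Cytosolic ribosomal protein genes, of which 73 of 83 rose in relative level in DMSO, had a median of -0.11. At an unadjusted p under 0.05, 19 of them were faster and 1 slower (RPS29). Beside RPL5, which was called, RPL7A was at -0.24 ± 0.066 and RPS6 at -0.25 ± 0.071 (adjusted p = 0.113 and 0.123 by edgeR). Nuclear oxidative phosphorylation genes had 13 of 81 faster and 2 slower at that unadjusted p and a median of -0.15, with NDUFV2 and NDUFS8 of complex I at -0.66 ± 0.20 and -0.68 ± 0.21. Proteasome genes had 8 of 38 faster and 0 slower, a median of -0.22 and PSMC1, an ATPase of the regulatory particle, at -0.54 ± 0.18. Cell cycle genes had 8 of 39 faster and 2 slower, a median of -0.26, the kinase CDK6 at -0.25 ± 0.085 and the kinesin CENPE at -0.42 ± 0.14. No gene of the last 3 lists passed by edgeR after adjustment. With spike-in scaling 3 of 34 list medians were above 0, and 33 of 34 kept their side of the median of all genes.

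In the lists of the m6A machinery 0 genes passed. Of 12 writer genes 1 was slower (RBM15B, 0.76 ± 0.28, adjusted p = 0.354 by edgeR) and 1 faster (ZCCHC4, -0.76 ± 0.35) at an unadjusted p under 0.05, with a median of 0.028. Of 14 readers and erasers 2 were slower and 2 faster at that unadjusted p, with a median of -0.057, and the reader YTHDF1 was at 0.61 ± 0.20 (adjusted p = 0.233 by edgeR). Of 43 deadenylation and decay genes BTG2 passed, and the median was -0.058.

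The 13 mRNAs made from the mitochondrial genome differed among themselves. MT-CYB (chromosome M, positions 14747 to 15887), cytochrome b of complex III, fell from 3364 and 3179 to 1729.9 and 1615 and then 1183 and 1119.6 CPM in DMSO, and from 3534 and 3203 to 2394 and 2163 and then 1688 and 1508 under STM2457. The arms overlapped at 0 h and not at 3 and 6 h. MT-CYB was slower by 0.43 ± 0.067 over 6 h (adjusted p = 6.11e-06 by edgeR) and by 0.40 ± 0.067 over 3 h. With spike-in scaling it was at 0.023 over 6 h and not called. MT-ND1 (chromosome M, positions 3307 to 4262), of complex I, fell from 4945 and 4413 to 532 and 505 CPM in DMSO and from 4360.1 and 3849.9 to 356 and 352 under STM2457. Its decay difference was -0.36 ± 0.076, with no call at -0.28 without DMSO at 0 h, replicate 2 and -0.27 without STM2457 at 0 h, replicate 1. The median of the 13 was 0.036, 12 fell in DMSO, and MT-ND2 was at 0.29 ± 0.08 without passing (adjusted p = 0.108 by edgeR).

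The 3 h libraries give the middle of the time course, and these intervals share the 0 h or 6 h libraries with the values above. Over 0 to 3 h 16 genes differed (0.0955%), 13 slower (0.0776%) and 3 faster (0.0179%), and over 3 to 6 h 15 (0.0895%), 9 slower (0.0537%) and 6 faster (0.0358%). At an unadjusted p under 0.05 these were 1095 (6.53%) and 1482 genes (8.84%). Of the 33 genes slower over 6 h, 31 were above 0 by 3 h, against 50.6% of all tested genes, and this value shares the 0 h libraries with the one that chose them. FAM49A (chromosome 2, positions 16549459 to 16666331) rose in relative level from 25.1 and 20.3 to 49.2 and 48.5 and then 68.3 and 92.7 CPM in DMSO, and from 18.6 and 23.3 to 168 and 157 and then 152 and 155 under STM2457. It differed by 1.85 ± 0.21 over 3 h and kept that call when any 1 library was left out, and by 1.05 ± 0.20 over 6 h, a call lost in 3 refits (0.84 to 0.90). BTD, the gene of biotinidase, was called slower over 3 h (2.97) and faster from 3 to 6 h (-2.13) on 1 library, STM2457 at 3 h, replicate 1, at 342 CPM against 26.1 to 67.0 in the others. Without it the values were 0.60 and 0.24. BTD shares 4.27% of its exon bases with ANKRD28 on the other strand. MYCN was faster over 3 h by -0.28 ± 0.067 (adjusted p = 0.0491 by edgeR), a call lost in 5 refits (-0.31 to -0.21), and RPS2, of the small ribosomal subunit, by -0.31 ± 0.065, lost in 4 (-0.27 to -0.20). From 3 to 6 h SDHAF1 (4.87, no call at 3.72 without DMSO at 3 h, replicate 1) and ALDH1B1 (1.09 ± 0.23, no call at 0.93 without STM2457 at 3 h, replicate 1 and 0.89 without DMSO at 6 h, replicate 2) were slower, and RTN4R was faster (-3.86, with the call lost in 4 refits at -3.27 to -2.81). MYORG and LPXN from 3 to 6 h (3.98 and -8.32) and ADAMTS14 over 3 h (-9.52) were called from levels of at most 11.5 CPM in any library. Their calls were lost in 3, 4 and 6 of 8 refits, at 3.27 to 3.53, -7.98 to -6.18 and -10.33 to -4.84.

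Libraries that are not part of the contrast were set beside it. In Kelly at 6 days, 22 of the 33 slower genes were above 0 (66.7%, against 50.5% of all tested genes) and 6 were called slower (0.149% of all tested). In NGP at 3 days, 27 of 33 were above 0 (81.8%, against 51.2%) and 9 were called slower (0.274%). SOX12 was at 0.40 in Kelly at 6 days and 1.19 in NGP, PRCC at 0.82 and 0.82, and MAGEF1 at 1.28 and 0.85. MT-CYB, the other gene that kept its call in all refits, was at -0.067 and -0.0091, below 0 in both. Beside it, the slower genes below 0 in NGP were H2AC13 (-0.41), INTS5 (-0.38), RPS29 (-0.14), BICRAL (-0.037) and FAM49A (-0.006). FEN1 was at 1.57 and 0.94, and BYSL at 0.72 and 2.07. All 4 faster genes were below 0 in NGP and 3 of 4 in Kelly at 6 days, where RTN4R was at 0.20. The medians of the junction-poor and junction-rich classes were 0.042 and -0.068 in Kelly at 6 days and 0.134 and -0.053 in NGP.

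The test of the difference between 3 and 6 days called 33 genes (0.197%), 28 with a higher decay difference at 3 days (0.167%) and 5 with a lower one (0.0298%). H1-4 was at 1.13 at 3 days and -1.36 at 6 days, a difference of 2.50 ± 0.26 (adjusted p = 1.91e-13 by edgeR), and H2AC20, which did not pass at 3 days, at 0.59 and -1.89. The median of the 57 histone genes was 0.41 at 3 days, -0.67 at 6 days and 0.26 in NGP at 3 days. MT-CYB was at 0.43 and -0.067. In the other direction HNRNPM, a splicing factor, was at -0.15 and 0.49. HNRNPM lost its call without DMSO at 0 h, replicate 1 (-0.54). Between Kelly and NGP at 3 days the same test called 1 of 17343 genes, RYR2, a calcium channel (0.00597% of the 16759 genes tested in both fits). It was at 3.25 in Kelly and -0.12 in NGP, at no more than 12.9 CPM in any of the 12 Kelly libraries.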

How the data were processed

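Poly(A) RNA was captured on beads and made into libraries with a SMART cDNA kit, per the labels' protocols. The authors deposited raw fragment counts per gene, made with featureCounts 1.5.3 at exon level by gene name, per the file headers, for 19923 protein-coding genes and 92 ERCC spike-ins. HISAT2 2.1.0, Trimmomatic 0.36, FastQC 0.11.5, Subread 1.5.3 and GRCh38 are named in the submitters' processing notes. The headers give no strand option, so overlapping genes cannot be told apart. The main test was edgeR 4.0.16 (R 4.3.3; quasi-likelihood, TMM, filterByExpr with a minimum count of 10) over all 24 Kelly libraries in 12 groups, and over 48 libraries for Kelly against NGP. The p-values were adjusted by Benjamini-Hochberg over all genes tested, with a threshold of 0.05. The procedure was also run on simulated data in which all genes had the same extra spread and no library stood apart. Such data cannot show how it behaves with libraries like those of RPS29 and ANKRD28. No batch or date is labelled. Same-numbered replicates did not deviate together.

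Groups came from the labels. The 2 libraries of a group differed beyond sampling noise. Gene structure, GC content and sequences came from GENCODE 44 and GRCh38, with 16303 of 16759 tested genes matched by symbol to a canonical transcript. Classes of genes are described by medians without a test. Named genes were METTL3 and MYCN, the 12 largest differences per direction among called genes of 5 CPM or more (filled up by unadjusted p where few passed), up to 3 called members per list, and called genes of the other comparisons, and others are marked. One gene that this rule names is not reported here. Members and lists were chosen with earlier results of these data known. Alternatives were RLE, library size and ERCC scaling, other filters, DESeq2 1.42.0, limma-voom (limma 3.58.1), the 12 libraries alone, each library left out, a replicate block, a linear slope, and removed length or GC trends.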

Additional observations from a re-analysis of the deposited data

Results flagged for a closer look

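The decay difference of 10 named genes differed between 3 and 6 days in Kelly by edgeR's test of that difference. The histones among them were higher at 3 days: H2AC13 by 4.18 (2.60 at 3 days and -1.58 at 6 days), H4C2 by 2.53 (2.13 and -0.40), H1-4 by 2.50 (1.13 and -1.36), H2AC20 by 2.48 (0.59 and -1.89) and H2BC14 by 2.12 (1.13 and -0.98). ANKRD28 differed by 5.24 (2.19 at 3 days and -3.05 at 6 days). Its 3-day value rests on 1 library and was -0.29 without it, so the 6-day libraries hold much of this difference. CDK18 differed by 2.07 (1.61 and -0.46), MT-CYB by 0.50 and MYCN by 0.41 (-0.019 and -0.43). In NGP at 3 days MYCN was at 0.37 (adjusted p = 0.0464 by edgeR), on the other side of 0 from Kelly at 6 days. The difference of MYCN between Kelly and NGP at 3 days did not pass (adjusted p = 0.536 by edgeR). HNRNPM differed by -0.64. Between Kelly and NGP, RYR2 differed by 3.36.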

How the results depend on the processing

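The gap between the outer junction classes stayed above 0 in each refit, at 0.159 to 0.194 over 6 h and 0.0910 to 0.130 over 3 h when 1 library was left out. Counts of called genes moved more. Over 0 to 6 h, against 37, they were 2418 with spike-in scaling, 17 with the stricter filter (1 CPM), 96 with DESeq2, 5 with limma-voom, 24 with the 12 libraries alone, 73 and 75 with the exon length or GC trend removed (the latter chosen after seeing the data), and 0 for a linear slope over 0, 3 and 6 h (1052 at an unadjusted p under 0.05). Over 0 to 3 h, against 16, they were 4 with the stricter filter, 26 with DESeq2, 2 with limma-voom and 8 with the 12 libraries alone. Over 3 to 6 h, against 15, they were 2320 with spike-in scaling, 23 with no filter, 0 with the stricter filter (1118 at an unadjusted p under 0.05), 99 with DESeq2, 1 with limma-voom and 0 with the 12 libraries alone (1289). The actinomycin D effect under STM2457 called 8387 genes with spike-in scaling, against 4501. The test of 3 against 6 days called 5918 with spike-in scaling, 8 with the stricter filter and 5 with limma-voom, against 33, and that of Kelly against NGP 1697, 58 with no filter, 14 with DESeq2 and 0 with limma-voom (981 at an unadjusted p under 0.05), against 1. The causes were not tested.

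With a replicate block the counts were 47 over 0 to 6 h, 20 over 0 to 3 h, 29 over 3 to 6 h, 5060 in DMSO, 4537 under STM2457, 40 for 3 against 6 days and 45 for Kelly against NGP. Same-numbered libraries share only a number: their deviations correlated at -0.030 to 0.033 across 9179 genes. With 1 library left out the counts were 22 to 123 over 0 to 6 h, 8 to 53 over 0 to 3 h, 12 to 90 over 3 to 6 h, 3974 to 4376 in DMSO, 3472 to 3659 under STM2457, 26 to 70 for 3 against 6 days and 3 to 75 for Kelly against NGP.

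Signs changed for 7 results. With 1 library left out, METTL3 ran from -0.16 to 0.034, with 0.025, 0.034 and 0.027 without DMSO at 0 h, replicate 1, STM2457 at 0 h, replicate 2, or DMSO at 6 h, replicate 1. MYCN ran from -0.079 to 0.041, was at 0.041, 0.021, 0.017 and 0.016 without DMSO at 0 h, replicate 1, STM2457 at 0 h, replicate 1, DMSO at 6 h, replicate 1, or STM2457 at 6 h, replicate 2, and was at 0.046 with library size. RPS29 ran from -0.58 to 3.22, ANKRD28 from -0.29 to 3.06 and BTD (3 to 6 h) from -2.98 to 0.24, each crossing 0 only without the library that stands apart. With spike-in scaling HAND2 was at -0.044 and MT-ND2 at -0.12.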
